A study of Mus musculus with 15 samples.

Results

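Pax5, Bach2, Bcl6, Ebf1, Spib, Spi1, Irf8, Ets1, Bcl11a and Mef2c encode transcription factors that set up or hold the B cell state. They were taken from the deposited gene table by symbol, 1 Ensembl identifier each, so that they are 10 of 51912 genes, and all 10 passed the filter on low counts that left 15692 genes. The series holds 15 mouse RNA-seq libraries, 3 for each of 5 groups, all from wild-type B cells. The culture ran for 6 days on 40LB, a fibroblast line made to present CD40 ligand and BAFF, with 100 ng/ml of the cytokine IL-4, and the whole unsorted culture was sampled at its end (D6). The other cells were taken off the feeder layer, left for 2 days without stimulation and sorted on day 8. The labels name the 4 sorted groups IgE iGC, IgG1 iGC, IgE PC and IgG1 PC, where PC stands for plasma cells. They do not spell out iGC, and the titles code these samples as NON. Here iGC is read as the switched cells of the culture that were not plasma cells. The sorting gates, the age and the strain of the mice are not given in the sources used here. The labels call the 3 libraries of a group biological replicates without saying whether they came from separate animals, so the p-values measure the spread between these libraries.

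As background, Ebf1 and Pax5 commit lymphoid progenitors to the B lineage and keep genes of the B cell receptor and its co-receptors on, and Pax5 also keeps genes of other lineages off. The ETS factors Spi1 (the gene of PU.1) and Spib bind DNA with Irf8 or Irf4 at composite ETS-IRF sites, and Ets1, another ETS factor, restrains plasma cell formation. Bach2 and Bcl6 are repressors that hold Prdm1, the gene of the plasma cell regulator Blimp-1, in check; Bcl6 is required for germinal centre B cells, Bcl11a for early B cell development, and Mef2c for the response of B cells to receptor signals. During plasma cell differentiation Blimp-1 in turn represses Pax5, Bcl6, Spib and other genes of the B cell program.

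Libraries held 17740876 to 54067953 expected counts. The 8 plasma cell markers, among them Jchain, Irf4 and Xbp1, summed to 17099 to 19540 CPM (counts relative to the TMM-scaled library size) in IgE PC and 9536 to 13902 in IgG1 PC, against at most 1094 in any library of the other groups, and the 8 B cell markers were present in all groups. Jchain was the largest part of the plasma cell sums, with means of 12642 CPM in IgE PC and 7172 in IgG1 PC. At an adjusted p under 0.05 in edgeR's test, 6 of the 8 were higher in IgE PC than in IgG1 PC and 0 lower. Of all genes, 27.4% were higher and 30.7% lower. Prdm1 and Xbp1 did not pass that threshold. The IgG1 PC libraries were not alike: replicate 1 had the highest plasma cell marker sum, 13902 CPM against 10331 and 9536. Its B cell marker sum was also the highest of its group, 17595 CPM against 15798 and 16246. For each of the 10 genes except Spi1 it had the lowest value of its group. The log2 fold changes of the 10 genes that use IgG1 PC are therefore given with and without it. The 12 fibroblast markers, which a feeder cell would carry, summed to 269 to 409.6 CPM in D6, 78.4 to 202 in IgG1 PC, 24.1 to 38.4 in IgE PC and 40.5 to 79.1 in the iGC groups; Postn was at 0 counts in 4 of the groups, and the part of feeder RNA in the results was not tested. The 12 markers of macrophages, neutrophils and dendritic cells, which share Spi1 and Irf8 with B cells, summed to 31.8 to 33.2 CPM in D6, 18.9 to 21.2 in IgE iGC, 30.8 to 32.2 in IgG1 iGC, 2.93 to 3.69 in IgE PC and 10.8 to 18.6 in IgG1 PC; Clec9a was at 0 counts in all 5 groups. T and NK cell markers summed to at most 4.16 CPM. In these bulk samples, fewer cells of a type and less RNA per cell cannot be told apart.

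Compared per length, in TPM, RSEM's abundance scaled for transcript length, the 10 genes spanned a wide range of levels. In IgE iGC, Mef2c (558 TPM), Irf8 (523) and Spib (517) were the highest, Pax5 (257) and Ets1 (254) followed, and Bcl6 (56.4), Ebf1 (53.4) and Bach2 (37.5) were the lowest. The order in IgG1 iGC began with Mef2c (577 TPM) and Spib (573). In IgE PC, Mef2c (253 TPM), Irf8 (126) and Ets1 (83.3) led, while Spib and Pax5 both stood at 24.7, below Spi1 at 28.6. In IgG1 PC, Spib was still at 127 TPM and Pax5 at 73.3. The plot of CPM by library shows every gene in all 15 libraries.

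**Figure D1:**
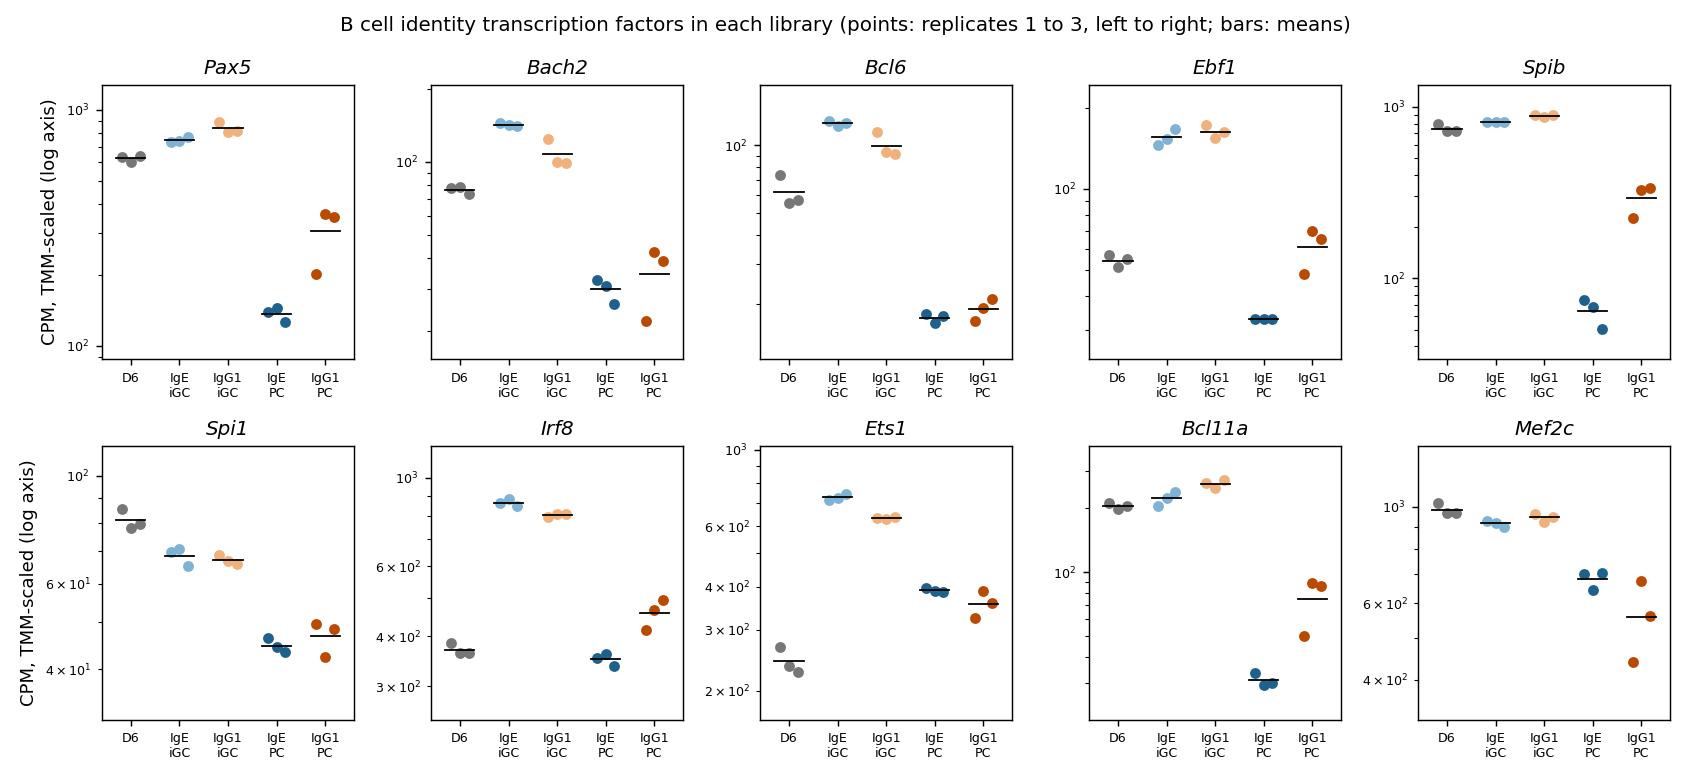
CPM on TMM-scaled library sizes (log axis) of the 10 genes in the 5 groups; points are replicates 1 to 3 from left to right and bars are group means. All 10 genes lie lower in the PC groups than in the iGC groups, and Pax5, Spib, Bcl11a, Ebf1 and Irf8 lie lower in every IgE PC library than in every IgG1 PC library.

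The RefSeq promoter table (GRCm38.p6) holds windows for 8 of the 10 genes, 13 windows in all. The 250 bases upstream of a transcription start are shown for Pax5 and Spib, which differed between the plasma cells of the isotypes, and for the repressors Bach2 and Bcl6, which moved together over the libraries. Capitals mark each GGAA, the core of sites for ETS factors such as PU.1 and Spi-B, read on either strand (GGAA or TTCC), and the whole of any composite ETS-IRF match (GGAA, any 2 bases and GAAA, on either strand). The windows are, on GRCm38, chr4:44710695-44710944 on the minus strand for Pax5, chr7:44532072-44532321 on the minus strand for Spib, chr4:32417185-32417434 on the plus strand for 1 start of Bach2, and chr16:23981284-23981533 on the minus strand for 1 of the 2 starts of Bcl6.
Pax5: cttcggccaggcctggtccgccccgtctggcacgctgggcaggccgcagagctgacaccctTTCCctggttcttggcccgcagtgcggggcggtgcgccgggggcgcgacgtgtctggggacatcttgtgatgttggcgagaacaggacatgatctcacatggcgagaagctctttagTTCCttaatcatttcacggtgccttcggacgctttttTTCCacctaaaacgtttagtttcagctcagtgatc
Spib: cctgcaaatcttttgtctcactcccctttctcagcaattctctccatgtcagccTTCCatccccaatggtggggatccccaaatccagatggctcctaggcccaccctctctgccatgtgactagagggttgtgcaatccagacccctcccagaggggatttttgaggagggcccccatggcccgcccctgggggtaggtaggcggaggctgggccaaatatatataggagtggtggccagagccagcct
Bach2: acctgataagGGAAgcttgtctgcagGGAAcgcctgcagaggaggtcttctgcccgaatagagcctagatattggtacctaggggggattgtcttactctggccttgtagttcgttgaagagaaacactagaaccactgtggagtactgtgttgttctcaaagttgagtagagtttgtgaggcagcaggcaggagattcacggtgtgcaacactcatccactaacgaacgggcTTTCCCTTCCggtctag
Bcl6: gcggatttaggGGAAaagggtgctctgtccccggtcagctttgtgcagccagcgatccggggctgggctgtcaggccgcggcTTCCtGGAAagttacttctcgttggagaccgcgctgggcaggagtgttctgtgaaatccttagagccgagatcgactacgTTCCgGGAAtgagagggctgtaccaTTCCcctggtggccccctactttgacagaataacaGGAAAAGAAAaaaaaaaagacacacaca
The core alone says little, since 93.4% of all 32851 windows hold it, and these 4 held 3, 1, 4 and 7 copies. The composite, which contains the core, was found in 2 of the 13 windows, the Bach2 and Bcl6 windows shown, at 7 and 18 bases before the start. Of the 2 Bcl6 starts, the one shown is thus the one with a match, and the start not shown, at the annotated beginning of the gene, has none. Both matches lie at starts inside the annotated genes. No window was held for the annotated beginning of Bach2, at chr4:32238804, so it was not searched. Of all windows, 2.3% hold the composite. The EBF1 palindrome, TCCC, any 2 bases and GGGA (0.779% of all windows), and the octamer ATGCAAAT (1.6%), each searched on both strands, were in none of the 13. A match is a description of letters and not of binding.

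The change from iGC to PC was tested within each isotype with edgeR's quasi-likelihood test, and a gene was called at a Benjamini-Hochberg adjusted p under 0.05 over all 15692 genes. All 10 genes fell in IgE, where 33.6% of all genes tested were called lower, and all 10 fell in IgG1, where 29.0% were. Their median log2 fold change was -2.24 in IgE and -1.43 in IgG1, against -0.08 and 0.01 over all genes tested. In none of the 20 cases did a PC library overlap an iGC library of its isotype; 37.6% of all genes in IgE and 31.2% in IgG1 were lower without overlap. At least 2-fold falls were seen for 7 of the 10 in IgE, where 13.6% of all genes were called lower by that much, and for 6 in IgG1, where 5.02% were. Scaling by total counts, which moves the median of all genes to -0.55 in IgE and -0.22 in IgG1, left 2651 genes higher and 8743 lower in IgE (4788 and 5270 with TMM) and 3226 higher and 6840 lower in IgG1 (4720 and 4553). The fall of each of the 10 genes was called under all 22 alternatives, those without IgG1 PC replicate 1 and with total-count scaling included. Without IgG1 PC replicate 1 the IgG1 falls were smaller for 9 of the genes, with log2 fold changes of -2.32 for Bcl6, -1.58 for Bcl11a, -1.43 for Spib, -1.40 for Bach2, -1.27 for Ebf1, -1.23 for Pax5, -0.77 for Ets1, -0.75 for Irf8 and -0.61 for Mef2c, and larger for Spi1, at -0.57.

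**Figure D2:**
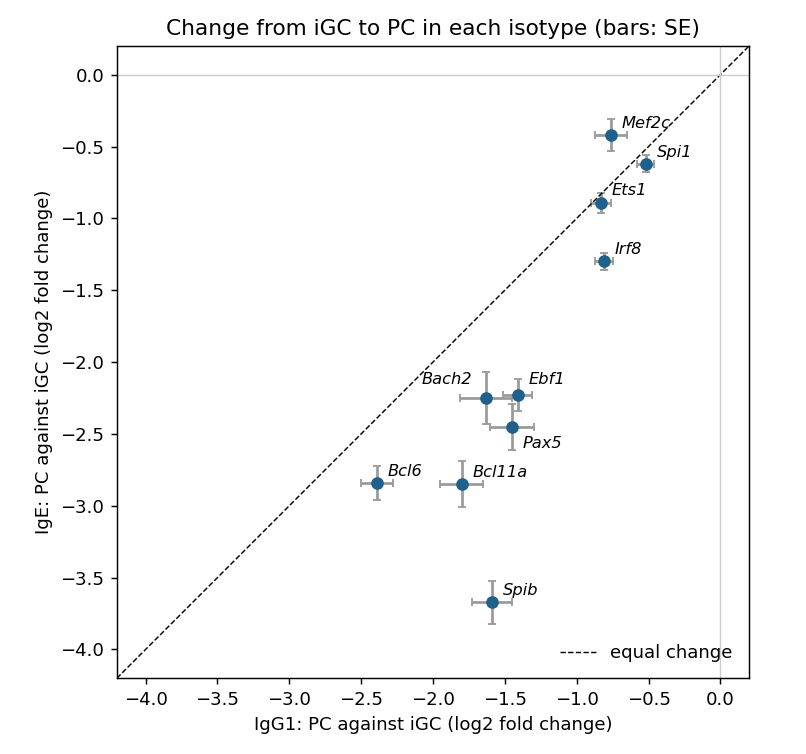
Log2 fold change from iGC to PC in IgE (vertical) against IgG1 (horizontal) for the 10 genes, with standard errors; the dashed line marks an equal change. Spib lies farthest below the line, at -3.67 in IgE and -1.59 in IgG1, and Mef2c, Spi1 and Ets1 lie nearest to 0.

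Among the factors of B lineage commitment, Pax5 (ENSMUSG00000014030, chr4:44524757-44710487, minus strand, protein coding) was at 735, 737 and 767 CPM in IgE iGC and at 139.7, 145 and 126 in IgE PC. In IgG1 it was at 891, 808 and 815 CPM in iGC and at 202, 361 and 353 in PC. All PC libraries were below all iGC libraries, and the lowest IgG1 PC library was replicate 1. Pax5 fell 5.45-fold in IgE (log2 fold change -2.45 ± 0.16 SE, adjusted p = 3.85e-09) and 2.74-fold in IgG1 (-1.45 ± 0.15, adjusted p = 1.88e-06). In D6 it was at 633, 599 and 639 CPM, between the iGC and the PC groups.

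Ebf1 (ENSMUSG00000057098, chr11:44617317-45008091, plus strand), which acts upstream of Pax5 in early B cells, was at 146, 153 and 167 CPM in IgE iGC and at 33.0 in each of the 3 IgE PC libraries. In IgG1 it was at 172, 154 and 162 CPM in iGC and 48.4, 69.5 and 65.2 in PC. IgE PC held the lowest 3 values of all libraries. Ebf1 fell 4.71-fold in IgE (-2.23 ± 0.11, adjusted p = 3.90e-11) and 2.66-fold in IgG1 (-1.41 ± 0.10, adjusted p = 1.53e-08). D6 did not stand with the iGC groups for this gene: its libraries were at 56.6, 51.1 and 54.9 CPM, within the range of IgG1 PC.

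Bcl11a (ENSMUSG00000000861, chr11:24078056-24174123, plus strand), a zinc finger repressor needed early in B cell development, was at 205, 225 and 239.8 CPM in IgE iGC and 33.4, 29.3 and 30.1 in IgE PC. In IgG1 it was at 265, 249 and 272 CPM in iGC and 50.1, 89.3 and 86.1 in PC, replicate 1 again being the lowest. It fell 7.21-fold in IgE (-2.85 ± 0.16, adjusted p = 8.59e-10) and 3.47-fold in IgG1 (-1.80 ± 0.15, adjusted p = 2.11e-07). Over the 15 libraries its log2 CPM followed that of Pax5 most closely of all genes considered (Pearson r = 0.996).

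Among the ETS factors, Spib (ENSMUSG00000008193, chr7:44525993-44532071, minus strand), the gene of Spi-B, had the largest change of the 10 in IgE. Its level was 822, 812 and 819 CPM in IgE iGC and 74.5, 67.6 and 50.5 in IgE PC. In IgG1 it was 896, 876 and 892 CPM in iGC and 224, 325 and 334 in PC. IgE PC libraries kept 6.18% to 9.11% of the mean of their iGC group and IgG1 PC libraries 25.3% to 37.6%. Spib fell 12.7-fold in IgE (-3.67 ± 0.15, adjusted p = 1.24e-11) and 3.02-fold in IgG1 (-1.59 ± 0.14, adjusted p = 1.68e-07).

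Spi1 (ENSMUSG00000002111, chr2:91082390-91115756, plus strand), whose product PU.1 is closely related to Spi-B, moved far less. It was at 69.6, 70.7 and 65.3 CPM in IgE iGC and 46.3, 44.4 and 43.3 in IgE PC, and at 68.6, 66.7 and 65.9 in IgG1 iGC and 49.5, 42.4 and 48.4 in IgG1 PC. The PC groups overlapped each other and lay below both iGC groups. Spi1 fell 1.54-fold in IgE (-0.62 ± 0.06, adjusted p = 2.93e-07) and 1.44-fold in IgG1 (-0.52 ± 0.06, adjusted p = 3.48e-06). Ets1 (ENSMUSG00000032035, chr9:32636221-32757820, plus strand) was at 714 to 745 CPM in IgE iGC and 387 to 396 in IgE PC, and at 631 to 639.7 in IgG1 iGC and 325 to 389 in IgG1 PC. It fell 1.86-fold in IgE (-0.89 ± 0.07, adjusted p = 1.12e-08) and 1.78-fold in IgG1 (-0.83 ± 0.07, adjusted p = 6.99e-08).

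The repressors of the plasma cell program were among the lowest of the 10 genes in plasma cells. Bcl6 (ENSMUSG00000022508, chr16:23965052-23988852, minus strand) was at 128, 121 and 125 CPM in IgE iGC and 18, 16.4 and 17.6 in IgE PC, and at 114, 93.4 and 91.5 in IgG1 iGC and 16.7, 19.1 and 20.9 in IgG1 PC. The PC groups overlapped, and the highest PC library was at 20.9 CPM. Bcl6 fell 7.17-fold in IgE (-2.84 ± 0.12, adjusted p = 1.07e-11) and 5.24-fold in IgG1 (-2.39 ± 0.11, adjusted p = 1.51e-10), the largest fall of the 10 in IgG1. Bach2 (ENSMUSG00000040270, chr4:32238804-32586108, plus strand) was at 145, 141 and 139.7 CPM in IgE iGC and 32.7, 30.8 and 25.9 in IgE PC, and at 124, 99.9 and 98.7 in IgG1 iGC and 22.0, 42.5 and 39.0 in IgG1 PC. Replicate 1 of IgG1 PC, at 22.0, was below every IgE PC library, and the other two were above them. Bach2 fell 4.75-fold in IgE (-2.25 ± 0.18, adjusted p = 6.88e-08) and 3.09-fold in IgG1 (-1.63 ± 0.18, adjusted p = 3.25e-06).

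Irf8 (ENSMUSG00000041515, chr8:120736358-120756694, plus strand), the interferon regulatory factor that pairs with PU.1 and Spi-B in B cells, was at 864, 882 and 849 CPM in IgE iGC and 352, 361 and 337 in IgE PC. In IgG1 it was at 797, 810.4 and 809 CPM in iGC and 416, 465 and 494 in PC. It fell 2.47-fold in IgE (-1.30 ± 0.06, adjusted p = 2.76e-11) and 1.76-fold in IgG1 (-0.81 ± 0.06, adjusted p = 1.90e-08). Mef2c (ENSMUSG00000005583, chr13:83504034-83667080, plus strand) was at 929, 918 and 899 CPM in IgE iGC and 701, 644 and 704 in IgE PC, and at 963, 923 and 948 in IgG1 iGC and 439, 675 and 561 in IgG1 PC. It had the smallest fall in IgE, 1.34-fold (-0.42 ± 0.11, adjusted p = 0.00243), and fell 1.69-fold in IgG1 (-0.76 ± 0.11, adjusted p = 2.04e-05). By group mean, plasma cells kept 40.5% (IgE) and 56.9% (IgG1) of the iGC level of Irf8 and 74.6% and 59.1% of that of Mef2c.

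The isotypes were compared as iGC cells first. No gene of the 10 was called in edgeR's test, where 3.87% of all genes were, and none with DESeq2; 3 had an unadjusted p under 0.05, Bcl6, Ets1 and Bach2, all of them higher in IgE iGC. The log2 differences ran from -0.23 ± 0.15 for Bcl11a (adjusted p = 0.548) to 0.40 ± 0.17 for Bach2 (adjusted p = 0.286). The libraries of the groups did not overlap for 7 of the 10, Pax5, Bach2, Bcl6, Spib, Irf8, Ets1 and Bcl11a, where 27.5% of all genes did not. A fit of the iGC libraries alone, whose spread does not include the PC libraries, called Bach2 (0.39) and Ets1 (0.19) higher and Pax5 (-0.17), Spib (-0.13) and Bcl11a (-0.24) lower in IgE iGC. The fit without IgG1 PC replicate 1 called Bach2, Ets1 and Bcl11a in the same directions. Of all genes, the fit of the iGC libraries alone called 1503 and the fit without that PC library 1219. The main fit called 607.

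As plasma cells the isotypes differed in 6 of the genes. Spib, Bcl11a, Pax5, Ebf1 and Irf8 were lower in IgE PC than in IgG1 PC, in a comparison in which 30.7% of all genes were called lower and 27.4% higher, and no library of the groups overlapped for these 5 (31.2% of all genes were lower without overlap). Spib was 4.58-fold lower (-2.20 ± 0.14, adjusted p = 1.03e-08), Bcl11a 2.44-fold (-1.29 ± 0.16, adjusted p = 8.21e-06), Pax5 2.23-fold (-1.16 ± 0.15, adjusted p = 1.82e-05), Ebf1 1.85-fold (-0.89 ± 0.10, adjusted p = 3.22e-06) and Irf8 1.31-fold (-0.39 ± 0.06, adjusted p = 5.07e-05). Each was called under all 22 alternatives, and without IgG1 PC replicate 1 the differences were -2.36, -1.5, -1.38, -1.03 and -0.45. Mef2c was higher in IgE PC (0.29 ± 0.11, adjusted p = 0.0273), but its libraries overlapped, and without IgG1 PC replicate 1 it was at 0.15 with adjusted p = 0.0672. It was called under 14 of the 22 alternatives.

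The other 4 genes were not called between the plasma cell groups. Bach2 differed by -0.22 ± 0.18 (adjusted p = 0.309), Bcl6 by -0.13 ± 0.12 (0.36), Spi1 by -0.06 ± 0.06 (0.403) and Ets1 by 0.13 ± 0.07 (0.117), with libraries that overlapped for all 4. For Bach2 this rests on IgG1 PC replicate 1: without that library the difference was -0.45 with adjusted p = 0.00145, while Bcl6 (-0.20), Spi1 (-0.02) and Ets1 (0.07) were again not called. Total-count scaling, under which 7265 genes were lower and 2272 higher in IgE PC (4816 and 4303 with TMM) and the median of all genes moved from -0.05 to -0.30, called 8 of the 10 lower, adding Bach2 (-0.49), Bcl6 (-0.39) and Spi1 (-0.31), left Mef2c at 0.03, not called, and turned Ets1 to -0.13. The fibroblast marker sum given above was also lower in IgE PC than in IgG1 PC, and its part in these differences was not tested.

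**Figure D3:**
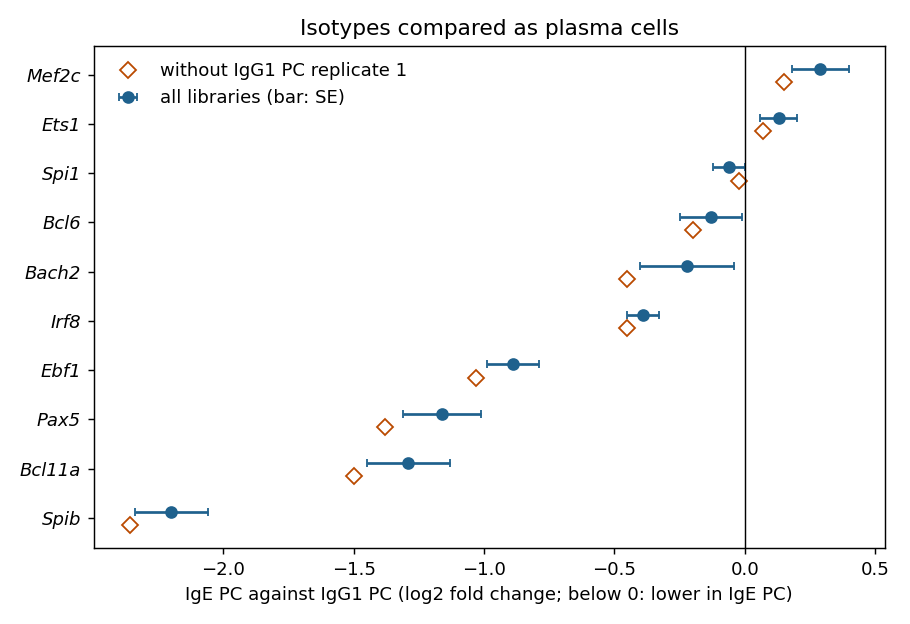
Log2 fold change of IgE PC against IgG1 PC for the 10 genes; filled points with standard errors are from all libraries and open diamonds from the fit without IgG1 PC replicate 1. Spib, Bcl11a, Pax5, Ebf1 and Irf8 lie below 0 in both fits, and Bach2 moves from -0.22 to -0.45.

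Whether the step from iGC to PC itself differed between the isotypes was tested as an interaction, negative where the fall was larger in IgE. It was called for 6 of the 10, all negative, where 23.1% of all genes were called negative. The values were -2.08 ± 0.19 for Spib (adjusted p = 1.46e-06), -1.05 ± 0.22 for Bcl11a (0.00139), -0.99 ± 0.22 for Pax5 (0.00208), -0.82 ± 0.14 for Ebf1 (3.18e-04), -0.49 ± 0.08 for Irf8 (2.81e-04) and -0.45 ± 0.16 for Bcl6 (0.0317). The first 5 were called under all 22 alternatives and Bcl6 under 13. Bach2 was at -0.62 ± 0.25 (adjusted p = 0.0589), and without IgG1 PC replicate 1 at -0.85 (adjusted p = 1.13e-04). Spi1 (-0.10 ± 0.09), Ets1 (-0.07 ± 0.10) and Mef2c (0.34 ± 0.15, adjusted p = 0.0815) were not called. Without that library Spib was at -2.24, Bcl11a at -1.27, Pax5 at -1.21, Ebf1 at -0.96, Irf8 at -0.56 and Bcl6 at -0.53, all called, and Spi1 (-0.05), Ets1 (-0.13) and Mef2c (0.19) were not. Total-count scaling changed the genes called negative and positive from 3632 and 3101 to 5603 and 1542, and called Bach2 (-0.87), Spi1 (-0.33) and Ets1 (-0.31) as well.

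Ratios between a factor and its relative or opponent in the same library do not depend on how libraries are scaled. The TPM ratio of Spib to Spi1 was 7.35, 7.17 and 6.37 in IgE iGC, 7.35, 7.99 and 8.26 in IgG1 iGC and 5.50 to 5.57 in D6. It was 0.949, 0.898 and 0.734 in IgE PC and 2.92, 4.88 and 4.09 in IgG1 PC. Spi1 exceeded Spib in TPM in the IgE PC libraries and in no other. The ratio of Irf8 to Irf4, the interferon regulatory factor that plasma cells need, was 14.3 ± 0.562 (SD, n = 3) in IgE iGC and 13.8 ± 0.911 in IgG1 iGC, and 0.264 ± 0.0149 in IgE PC and 0.568 ± 0.07 in IgG1 PC.

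Bcl6 to Prdm1, the pair that repress each other, stood at 27.1 ± 3.3 in IgE iGC and 31.6 ± 6.24 in IgG1 iGC, and at 0.0985 ± 0.00856 in IgE PC and 0.114 ± 0.0112 in IgG1 PC (SD, n = 3). Bach2 to Bach1, a paralog that binds similar DNA elements, was 4.09 ± 0.485 and 2.85 ± 0.476 in the iGC groups and 0.377 ± 0.0879 in IgE PC and 0.821 ± 0.153 in IgG1 PC. Between the plasma cell groups, the mean log2 ratio was lower in IgE by 2.18 for Spib to Spi1, 1.10 for Irf8 to Irf4, 1.14 for Bach2 to Bach1 and 0.21 for Bcl6 to Prdm1; without IgG1 PC replicate 1 the differences were -2.39, -1.19, -1.26 and -0.26. Two-sided exact permutation tests gave p = 0.1 for the first 3, the smallest p that 3 libraries against 3 allow, and p = 0.2 for Bcl6 to Prdm1, with adjusted values of 0.133 and 0.2 over the 4 ratios. The first 3 ratios were lower in every IgE PC library than in every IgG1 PC library, and the design cannot bring such a test under 0.05.

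**Figure D4:**
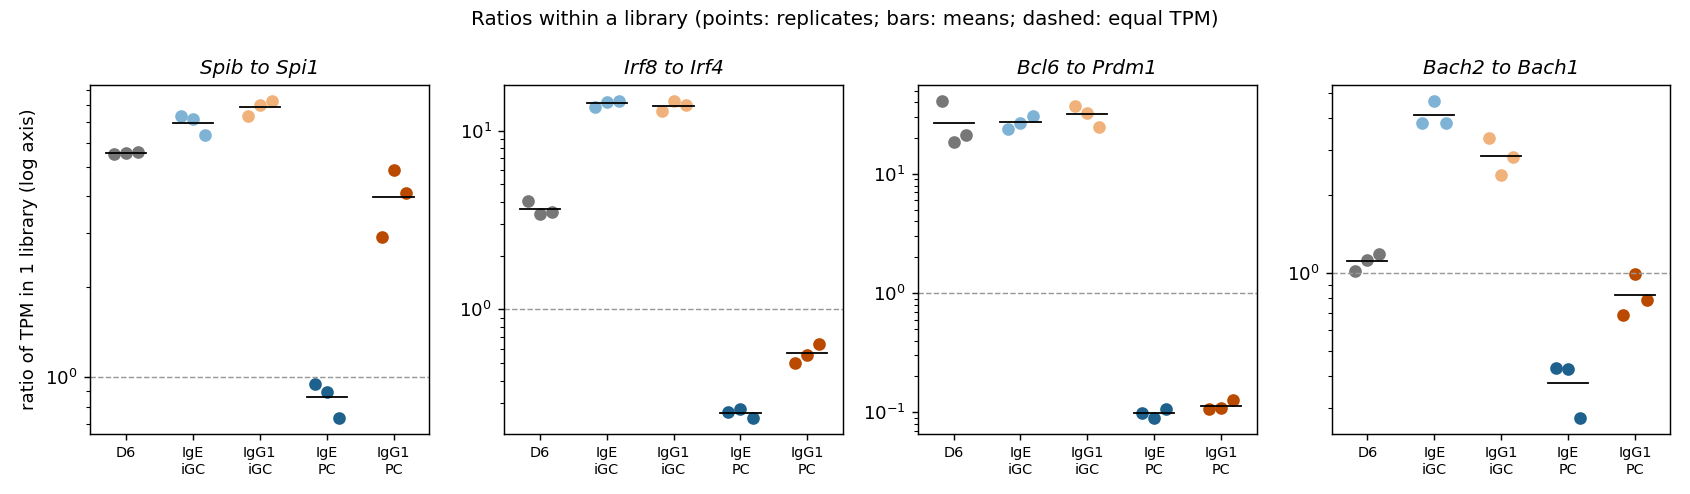
Ratios of TPM within each library (log axis) for Spib to Spi1, Irf8 to Irf4, Bcl6 to Prdm1 and Bach2 to Bach1; points are the replicates, bars the group means and the dashed line equal TPM. Spib to Spi1 lies below 1 in the IgE PC libraries only, at 0.734 to 0.949.

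Against the day 6 culture, all 4 comparisons share the same 3 D6 libraries, and D6 was unsorted and still on the feeder layer. In IgE iGC, 5 of the 10 were higher (32.8% of all genes were) and 1 lower (36.3%); in IgG1 iGC, 6 were higher (32.4%) and 1 lower (36.0%). Ets1, at 267, 235 and 227 CPM in D6, was 2.99-fold higher in IgE iGC (1.58 ± 0.07) and 2.61-fold in IgG1 iGC (1.38 ± 0.07). Ebf1 was 2.87-fold (1.52 ± 0.10) and 3.00-fold higher (1.59 ± 0.10), and Irf8, at 385, 364 and 363 CPM in D6, 2.34-fold (1.22 ± 0.06) and 2.17-fold. The largest adjusted p of these 6 edgeR tests was 3.69e-09, and these 3 genes had the highest iGC levels relative to D6 of the 10.

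Bcl6, at 73.6, 55.7 and 57.0 CPM in D6, was 2.00-fold higher in IgE iGC (1.00 ± 0.11) and 1.60-fold in IgG1 iGC (0.68 ± 0.11), and Bach2, at 77.7, 78.7 and 73.7 CPM, was 1.85-fold (0.89 ± 0.17) and 1.40-fold higher (0.49 ± 0.17). Pax5 was higher in IgG1 iGC (0.43 ± 0.15, adjusted p = 0.0222) and not called in IgE iGC (0.26 ± 0.15, adjusted p = 0.143; 0.27 and called without IgG1 PC replicate 1). Spi1, at 85.6, 78.2 and 79.7 CPM in D6, was the only one lower in both iGC groups, at -0.24 ± 0.06 and -0.27 ± 0.06. Spib, Bcl11a and Mef2c were not called in either iGC group; without IgG1 PC replicate 1, Spib (0.26) and Bcl11a (0.36) were called higher in IgG1 iGC. D6 levels of Spib (794, 725 and 719 CPM), Bcl11a (212, 199 and 206) and Mef2c (1018, 967 and 965) were all above every PC library.

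In the plasma cell groups, 8 of the 10 were lower than D6 in IgE PC (39.5% of all genes were) and 1 higher (36.9%), and 7 were lower in IgG1 PC (36.0%) and 2 higher (35.9%). Spib (-3.54 ± 0.15), Bcl11a (-2.73 ± 0.16) and Pax5 (-2.19 ± 0.16) were the lowest in IgE PC, and Bcl6 (-1.71 ± 0.11), Bcl11a (-1.45 ± 0.15) and Spib (-1.34 ± 0.14) in IgG1 PC. Without IgG1 PC replicate 1, 7 were lower and 3 higher in IgG1 PC, with Bcl6 at -1.63, Bcl11a at -1.22, Spib at -1.17, Bach2 at -0.90, Spi1 at -0.83, Pax5 at -0.80, Mef2c at -0.66, Ets1 at 0.63 and Irf8 at 0.38. Ets1 was higher in both, at 0.69 ± 0.07 and 0.56 ± 0.07, but total-count scaling left it at 0.15 in IgE PC, not called, and at 0.28 in IgG1 PC, and limma on log2(TPM + 1) turned it to -0.27 and -0.23, not called. Irf8 was not called in IgE PC (-0.08 ± 0.06, adjusted p = 0.228; -0.61 and called with total-count scaling) and was higher in IgG1 PC (0.31 ± 0.06, adjusted p = 2.66e-04), where total-count scaling left 0.03 and limma on TPM gave -0.42. Ebf1 was lower in IgE PC (-0.72 ± 0.10, adjusted p = 1.25e-05) and not called in IgG1 PC (0.18 ± 0.10, adjusted p = 0.13), where the fit without replicate 1 gave 0.32 and a call, total-count scaling -0.10 and limma on TPM -0.41. Total-count scaling gave 3311 genes higher and 9032 lower in IgE PC (5792 and 6191 with TMM), and 3964 and 7370 in IgG1 PC (5636 and 5645). The fibroblast marker sum was higher in every D6 library than in any day 8 library, and its part in these comparisons was not tested.

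**Figure D5:**
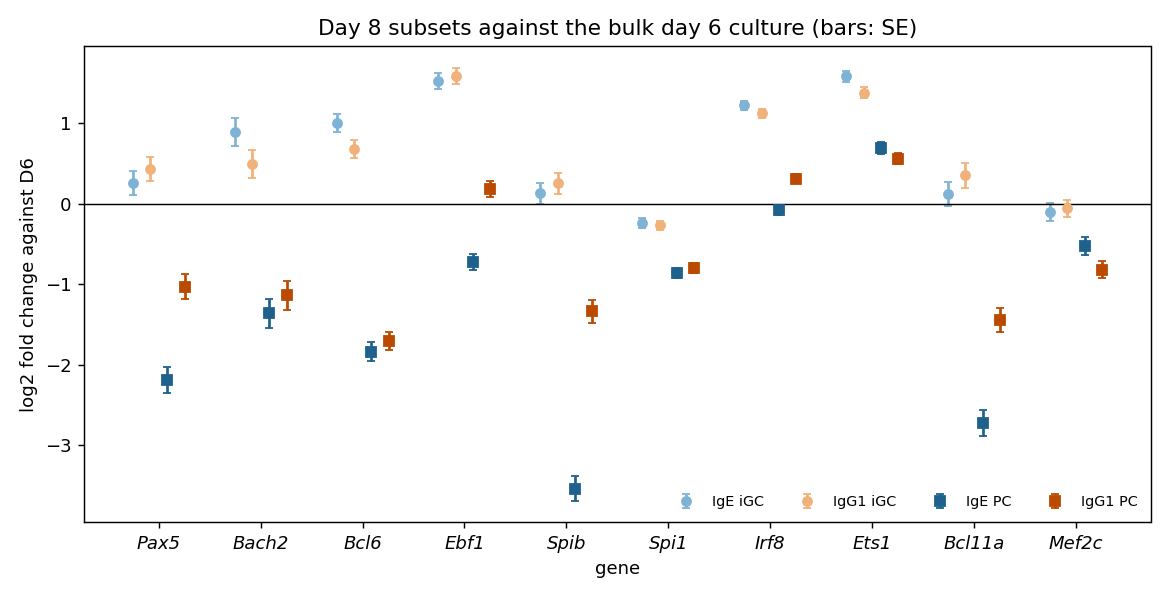
Log2 fold change of the 4 day 8 groups against the day 6 culture for each gene, with standard errors; circles are iGC groups and squares PC groups. Ebf1, Irf8 and Ets1 lie above 1 in both iGC groups, and Spib, Bcl11a and Pax5 reach their lowest values in IgE PC.

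The genes around the 10 factors were read from lists of known targets, partners and relatives. Of 18 B cell genes known to be activated by Pax5, Ebf1, PU.1 or Spi-B, 17 fell and 1 rose from iGC to PC in IgE (median -1.65), and 16 fell and 1 rose in IgG1 (median -0.91). Of all genes tested, 33.6% were called lower and 30.5% higher in IgE, and 29.0% lower and 30.1% higher in IgG1, and the median was -0.08 and 0.01. The one that rose was Blnk, an adaptor of the B cell receptor, at 0.35 and 0.21; Cd79a, a signalling chain of that receptor, was not called in IgG1 (-0.04; -0.15 and called without IgG1 PC replicate 1, when 17 fell and 1 rose). Cd72, an inhibitory co-receptor, fell 36.9-fold in IgE, from 177 ± 2.52 to 4.76 ± 0.974 CPM (SD, n = 3), and Ciita, the activator of MHC class II genes, fell 11.2-fold, from 461 ± 16.3 to 41.2 ± 4.77. In IgG1 the largest falls were those of Cr2, a complement receptor (-2.32 ± 0.14), and Bank1, a scaffold of receptor signalling (-1.99 ± 0.13).

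Between the plasma cell groups, 12 of the 18 targets were lower in IgE PC and 1, Btk, was higher (0.17), with a median of -0.81, where 30.7% of all genes were lower and 27.4% higher with a median of -0.05. Without IgG1 PC replicate 1, 13 were lower and 1 higher. Cd72 was at 4.76 ± 0.974 CPM in IgE PC and 63.2 ± 8.04 in IgG1 PC (-3.73 ± 0.12), Ciita at 41.2 ± 4.77 and 193 ± 47.2 (-2.23 ± 0.15), Bank1 at 22.8 ± 1.85 and 65.7 ± 16.4 (-1.53 ± 0.14) and Cd40, the receptor of CD40 ligand, at 12 ± 0.965 and 32.6 ± 5.18 (-1.44 ± 0.10). Ms4a1, the gene of CD20, was not among them, at 0.13, nor were Cd79b (-0.05), Blnk (-0.05) or Cd22 (-0.18; -0.30 and called without that library). As iGC cells, 1 of the 18 was called (3.87% of all genes were), Cd72, higher in IgE (0.40 ± 0.10, adjusted p = 0.0314). Against D6, 17 of the 18 were higher in IgE iGC (32.8% of all genes) and 16 in IgG1 iGC (32.4%), 1 being lower in each.

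Of 16 genes known to be repressed by Pax5, Bcl6 or Bach2, 12 rose and 4 fell from iGC to PC in IgE (median 1.79), and 10 rose and 5 fell in IgG1 (median 1.00). Of all genes, 30.5% rose and 33.6% fell in IgE and 30.1% rose and 29.0% fell in IgG1, so that the share of the list that fell was near that of all genes. Prdm1 rose in IgE by 5.23 ± 0.14, from 5.90 ± 0.955 CPM to 225 ± 12.4, and in IgG1 by 5.63 ± 0.14, from 3.99 ± 0.4 to 198 ± 14.2. Cd28, a co-stimulatory receptor that plasma cells carry, rose from 0.835 ± 0.165 to 61.5 ± 4.8 (6.14 ± 0.21) and from 0.846 ± 0.179 to 17.1 ± 2.92 (4.33 ± 0.21). The 4 that fell in IgE were Flt3, a receptor of early progenitors (-2.37), Gpr183, a chemotactic receptor (-1.67), Cd80, a co-stimulatory ligand (-1.06), and S1pr1, an egress receptor (-0.49). The last 3 and Flt3 fell in IgG1 too, with Bcl2, the survival factor (-0.54), which rose in IgE (0.47). Between the plasma cell groups 11 were higher and 3 lower in IgE PC (27.4% and 30.7% of all genes), with Cd28 at 1.85 ± 0.15, Cd69, an activation marker, at 1.56 ± 0.16, Hmox1, a heme oxygenase that Bach proteins repress, at 1.5 ± 0.12, and Flt3 at -2.29 ± 0.12; Prdm1 (0.19) and Xbp1 (0.01) were not called, and Xbp1 was called at 0.22 without IgG1 PC replicate 1.

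Of 20 partners and co-factors, 6 rose and 9 fell in IgE and 6 rose and 8 fell in IgG1, with medians of -0.16 and -0.11. Of all genes, 30.5% rose and 33.6% fell in IgE, and 30.1% rose and 29.0% fell in IgG1. Without IgG1 PC replicate 1, 6 rose and 11 fell in IgE, and 3 rose and 8 fell in IgG1. In IgG1 the rises of Mafg, Hdac3 and Zfp423 lost their calls. Irf4 rose in both, in IgE by 4.49 ± 0.08, reaching 2245 ± 43.6 CPM, and in IgG1 by 3.86 ± 0.08, reaching 1343 ± 104. Pou2af1, the octamer co-activator, rose by 0.47 and 0.41, while Ikzf1 and Ikzf3, the Ikaros and Aiolos genes, fell by 0.88 and 0.80 in IgE and by 0.77 each in IgG1. Bach1 rose in IgE, from 27.4 ± 1.57 to 63.3 ± 3.99 CPM (1.20 ± 0.10), and was not called in IgG1 (-0.08), and it was 1.04 ± 0.10 higher in IgE PC than in IgG1 PC. Myb, a progenitor factor, showed the opposite difference, at 19.1 ± 0.592 CPM in IgE PC and 46.4 ± 8.18 in IgG1 PC (-1.28 ± 0.12).

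Of 19 relatives from the same families, 14 passed the count filter, and 5 rose and 4 fell in each isotype. These shares were near those of all genes, 30.5% and 33.6% in IgE and 30.1% and 29.0% in IgG1. Apart from Irf4, which is also a relative of Irf8, the largest rise in IgE was that of the ETS gene Ets2, which reached 29.0 ± 0.98 CPM in IgE from 7.74 ± 0.359, and 11.9 ± 1.95 in IgG1 from 6.84 ± 0.855 (0.79 ± 0.12). Bcl6b, a relative of Bcl6 that was low in all groups, went opposite ways: it fell in IgE, from 1.03 ± 0.138 to 0.433 ± 0.118 CPM (-1.22 ± 0.21), and rose in IgG1, from 1.68 ± 0.0804 to 3.54 ± 0.279 (1.07 ± 0.17). The ETS gene Elk3 fell in IgE, from 45.0 ± 0.749 to 17.7 ± 0.262 CPM (-1.34 ± 0.09). Mef2b, a relative of Mef2c that is active in germinal centre B cells, rose where Mef2c fell, by 0.51 ± 0.09 in IgE and 0.48 ± 0.09 in IgG1. Pax6, Pax8, Ebf2, Ebf3 and Bcl11b did not pass the filter, with group means of at most 0.0729 CPM.

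Genes whose log2 CPM followed each factor closely over the 15 libraries were found among 8972 genes, and 1 or 2 of the closest are named for each. These correlations are descriptions, since the libraries share 5 groups and large group differences. Pax5 and Bcl11a were each other's closest gene (r = 0.996), and Il21r, the IL-21 receptor gene, came next for Pax5 (0.994). Spib was followed closely by Kynu, an enzyme of tryptophan breakdown (0.997). Ebf1 was followed by Lpxn (0.997), Irf8 by Ccar2 (0.997), Mef2c by Purb (0.995), Ets1 by Sh3kbp1 (0.991), Bach2 by Ikzf3 (0.986), Bcl6 by Slc43a2 (0.988) and Spi1 by Rnf220 (0.978). Among the 10 themselves, Bach2 and Bcl6 had r = 0.98, as had Spib and Pax5. The lowest values were those of Ets1 with Spi1 (0.03), Mef2c (0.24) and Spib (0.29).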

How the data were processed

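PolyA RNA was sequenced as 76 bp single-end, strand-specific reads, per the labels' protocols. The submitters' processing notes list cutadapt 1.9.1, STAR 2.5.2a, RSEM 1.3.0, DESeq2 1.12.3 and the build GRCm38. The deposited table gives RSEM's expected counts per gene and library, in which the authors let reads that fit several genes be divided among them, and the authors' TPM, which RSEM scales for length and library total. The number of unmapped per-sample columns was 0. Groups and replicate numbers came from the titles.

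Expected counts were rounded, filtered with filterByExpr (minimum count 10, minimum total 15), scaled by TMM and fitted with 1 mean per group over all 15 libraries in edgeR 4.0.16 (R 4.3.3; glmQLFit with robust dispersion, glmQLFTest; 10 residual degrees of freedom; common dispersion 0.0109). Standard errors are the size of a log2 fold change divided by the square root of F and are approximate. All adjusted p-values without another tool named are from this edgeR fit, by Benjamini-Hochberg over 15692 genes. The script was tested on simulated data. Alternatives were total-count scaling, TMM without immunoglobulin genes, no filter, only the groups compared, a replicate block, DESeq2 1.42.0, limma 3.58.1 on log2(TPM + 1), a 2-fold threshold and each library left out; ratios of expected counts, ratios without each PC library and list counts without IgG1 PC replicate 1 were added after the data were seen. Permutation tests used scipy 1.17.1. The TPM ratios and these tests were likewise not among the planned tests.

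The 10 genes and the lists were chosen with earlier results of these data known. List genes named were to be the 4 with the largest called change per list and contrast with groups that do not overlap and a mean of 10 CPM; not all are printed, and others (such as Blnk, Btk, Pou2af1, Bcl2 and those not called) were named after their values were seen. For each of the 10, closest genes were taken from the 3 with the highest Pearson r. Gene positions are from GENCODE vM21 (GRCm38). Exons of the 10 overlap only genes on the other strand, at no more than 1.84 CPM. Some of the closest genes and listed genes are not reported here.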

Additional observations from a re-analysis of the deposited data

Results flagged for a closer look

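By edgeR's test of the interaction, 6 of the 10 genes fell more in IgE than in IgG1 on the way from iGC to PC. Of all genes tested, 23.1% were called negative in this test. The difference of the log2 fold changes was -2.08 for Spib, -1.05 for Bcl11a, -0.99 for Pax5, -0.82 for Ebf1, -0.49 for Irf8 and -0.45 for Bcl6. Without IgG1 PC replicate 1 these were -2.24, -1.27, -1.21, -0.96, -0.56 and -0.53. The value for Bcl6 lost its call in 9 of the 22 alternatives.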

How the results depend on the processing

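Of 2420 log2 fold changes of the 10 genes under alternatives, 2336 kept their direction and side of the threshold, and 27 lost and 42 gained a call. Another 10 changed sign with no call in either fit, at most 0.34 in size as reported and 0.13 under the alternative, among them Ets1 between the PC groups (-0.13) and Ebf1 in IgG1 PC against D6 (-0.10) with total-count scaling. The other 5 changed sign with a call in at least 1 of the fits, all with limma on log2(TPM + 1): Mef2c in IgE PC against IgG1 PC (-0.13), and against D6, Ets1 in IgE PC (-0.27) and Ebf1 (-0.41), Irf8 (-0.42) and Ets1 (-0.23) in IgG1 PC. The cause was not tested. A 2-fold threshold, which by its construction calls fewer genes, left 4282 of all genes in IgE PC against IgE iGC, 2994 in IgG1 PC against IgG1 iGC, 2795 between the PC groups, 124 between the iGC groups and 2244 in the interaction. Against D6 it left 4616 in IgE iGC, 4414 in IgG1 iGC, 6507 in IgE PC and 4891 in IgG1 PC, and 4472 in IgE PC against IgG1 iGC and 2678 in IgG1 PC against IgE iGC. Of the 10 genes it left 6 falls from iGC to PC in IgG1, 3 lower and 0 higher between the PC groups, and 2 in the interaction. Against D6 it left 0 lower in either iGC group, 3 higher in IgG1 iGC, 5 lower and 0 higher in IgE PC and 0 higher in IgG1 PC.

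Between the iGC groups, 607 of all genes were called, 1503 with only those groups fitted, 937 with DESeq2 and 323 to 1219 with 1 library left out, most without IgG1 PC replicate 1; of the 10 genes, 2 were higher and 3 lower with only those groups, and 0 to 2 higher and 0 to 1 lower with 1 library left out. Between the PC groups the count of genes higher, 1 as reported, was 0 with total-count scaling, no filter, only those groups or limma on TPM, 2 with TMM without immunoglobulin genes or DESeq2, and 0 to 2 with 1 library left out; the count lower was 8 with total-count scaling. In the interaction 1 was higher with TMM without immunoglobulin genes or DESeq2, and 0 to 1 with 1 library left out, and limma on TPM called 4345 of all genes against 6733. Against D6, the fit of only those groups called 8 higher in IgE iGC; in IgE PC total-count scaling and limma on TPM called 0 higher, and in IgG1 PC 1 and 0. With 1 library left out, 4 to 8 were higher than D6 in IgG1 iGC.

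Same-numbered libraries did not deviate together (mean r = -0.014 over 30 pairs of libraries, 0 above 0.1; 3 of 15 libraries correlated best with their own number). With the replicate number as a block, the 10 falls from iGC to PC in each isotype were called, and 9950 genes in IgE and 9152 in IgG1 against 10058 and 9273; between the PC groups 5 of the 10 were lower and 1 higher, and the interaction was called for 6. The 3 libraries a group and the spread of IgG1 PC limit what small differences can be called.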
